A study of Mus musculus with 24 samples.

Results

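Brown adipogenesis was followed here in primary cells of the interscapular brown fat of C57BL/6 mice, as preadipocytes at day 0 and as adipocytes at day 5 of culture. Ribosome-protected fragments (RPF), the pieces of mRNA that ribosomes shield from nuclease, and RNA were sequenced from these cells. There were 2 RPF libraries (a and b) and 2 RNA libraries (1 and 2) at each day, 8 of the 24 libraries of the series, whose other libraries come from white cells and from fat depots. The cells were the stromal vascular fraction of the depot, pooled from 6 to 8 mice aged 2 to 3 weeks for each batch and grown to confluence. They were then induced for 2 days with 850 nmol/L insulin, dexamethasone, isobutylmethylxanthine and rosiglitazone, and kept for 2 days in 160 nmol/L insulin before a last medium without added insulin. All cells thus had the same strain and depot, and only the day 5 cells met the inducing agents. The serum differed too, being new-born calf serum before induction and fetal bovine serum afterwards. A fall or rise over the 5 days cannot be told apart from a direct response to these agents or to the change of serum. Whether both libraries of a day stem from different dishes is not stated, so that p-values measure the spread between libraries, which may be technical.

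The members are the 5035 genes, of 22418 in the deposited table, that have a value above 0 in all 24 libraries. A gene silent in any group is therefore missing, and so are Ucp1, the uncoupling protein that makes brown fat produce heat, and most of a list of 30 genes known from brown adipocytes, of which 5 were tested. Levels are RPKM, read numbers divided by the length of the coding sequence and by the size of the library. Eff, the translational efficiency, is the RPF level of a gene over its RNA level, so that a gene whose RPF and RNA move alike keeps its Eff. Changes are log2 ratios of day 5 over day 0 with their standard error (SE), and "rose" and "fell" are used of genes with an adjusted p under 0.05 in limma.

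When preadipocytes become fat cells, the transcription factors Cebpb and Cebpd act early and then give way to Pparg and Cebpa, which switch on the genes of lipid uptake, storage and insulin response. At the same time the cell loses its fibroblast shape, matrix and stress fibres. Brown adipocytes also build many mitochondria, which burn fatty acids. The rate at which an mRNA is read by ribosomes can change as well, and mRNAs of ribosomal proteins, which begin with a tract of pyrimidines, are a well known case.

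The RPF libraries of day 0 were shallow. They held 242425 and 217395 mapped reads, against 986159 and 1005949 at day 5, and 3757578 to 8015472 in the 4 RNA libraries. The median gene had 15 and 13 reads in RPF at day 0 and 56 in each library of day 5, and 29.6% and 34.2% of the genes had under 10 reads at day 0. The lowest value kept stood for 4 reads in each RPF library, so a gene that rose from fewer reads than that at day 0 cannot be among the members. The day 0 RPF duplicates differed by less than the sampling noise of their reads (chi-square per degree of freedom 0.972, against 1.27 for the day 5 duplicates). Thinned to the same depth, the day 5 duplicates did so too (0.984). The day 0 libraries were kept as 2 replicates, and lead counts are also given with their mean as 1 library. Each SE comes from a fit that pools the spread over all groups, deeper libraries included. For genes with few day 0 reads the SE can thus lie below the counting noise, and p-values can be too small.

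The labels held up against marker genes. All 10 markers of mature adipocytes with a value rose in RPF and in RNA, and all 13 markers of fibroblasts and preadipocytes fell in both. None of 13 endothelial and 18 skeletal muscle markers was among the members. Since members need a value in all 24 libraries, these cell types could not be judged here. Of 24 immune markers the members held the lysozymes Lyz1 and Lyz2, which share 41.7% of their coding windows of 28 bases and whose reads may be split between them. Lyz1 had an RPF change of -2.15 ± 0.32 and fell, and Lyz2 one of -0.45 ± 0.23, which did not pass. Neither passed in RNA. Of the vessel wall markers, Acta2 fell in RPF and in RNA, and the others had different calls in the 2 assays. Notch3 had -1.75 ± 0.33 in RPF and 0.63 ± 0.16 in RNA, and Cspg4 0.61 ± 0.30, which did not pass, and 1.36 ± 0.17. In cultures read as a whole, fewer cells of a type and less RNA per cell cannot be told apart.

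In RPF 1308 of the 5035 genes rose (26.0%) and 1745 fell (34.7%). In RNA 1495 rose (29.7%) and 2262 fell (44.9%), and with median-of-ratios scaling these became 1850 and 1834. Eff rose in 809 genes (16.1%) and fell in 1000 (19.9%). With the day 0 RPF libraries taken as 1, the RPF counts were 1193 and 1618 and the Eff counts 779 and 958. The median change over all genes was -0.16 in RPF, -0.20 in RNA and 0.02 in Eff, and quantile scaling would shift it by 0.25 in RPF, 0.14 in RNA and 0.08 in Eff. Genes that fell thus outnumbered those that rose in the deposited scaling, but the balance moves with the scaling. Among the 2736 genes with at least 10 reads in every brown library, 690 rose and 1263 fell in RPF. RPF and RNA mostly moved together. Of 2533 genes past the test in both, 2342 (92.5%) had the same direction.

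**Figure D1:**
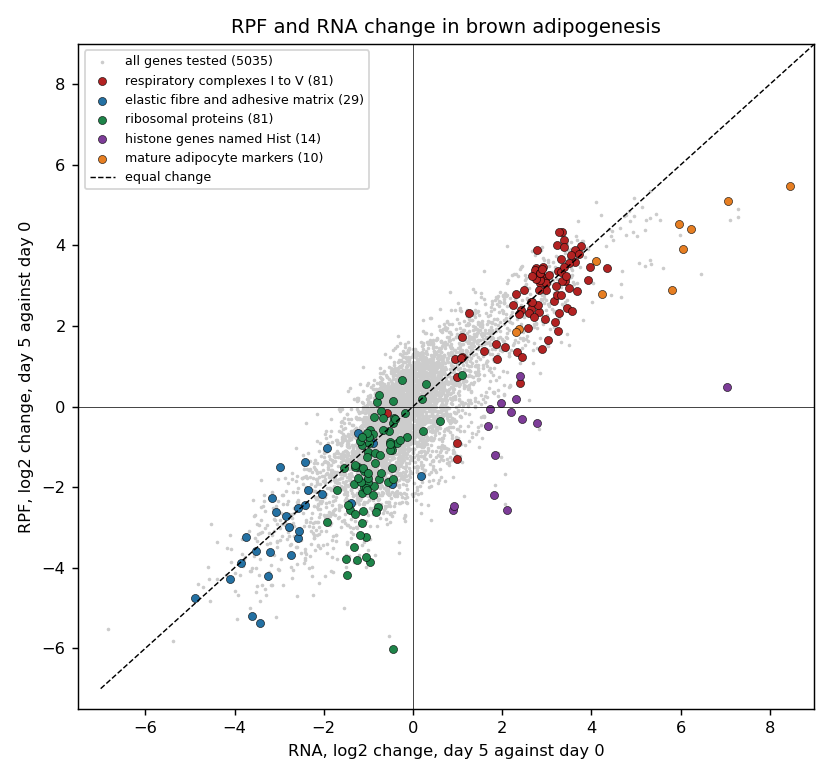
The log2 change from day 0 to day 5 in RNA (horizontal axis) is plotted against that in RPF (vertical axis) for the 5035 genes, each a point from 2 libraries per group, with 5 gene lists in colour. Respiratory chain subunits lie in the upper right, matrix genes in the lower left, most ribosomal proteins below the dashed line of equal change, and the 14 histone genes to its right with RNA up and RPF mostly near or below 0.

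Genes of the mature fat cell were among those with the largest rises. Fabp4, the fatty acid carrier of adipocyte cytoplasm, had RPF levels of 1192 and 1479 RPKM at day 0 and 45706 and 46295 RPKM at day 5. Its RNA levels were 345 and 358 RPKM at day 0 and 45249.7 and 48495 RPKM at day 5. The groups were far apart in both assays, with log2 changes of 5.11 ± 0.08 in RPF (limma, adjusted p = 9.51e-14) and 7.06 ± 0.11 in RNA (adjusted p = 2.20e-14). Because RPF exceeded RNA at day 0 and matched it at day 5, the Eff of Fabp4 went from 3.80 at day 0 to 0.981 at day 5, a change of -1.94 ± 0.14. Slc2a4, the insulin-responsive glucose transporter Glut4, had RPF levels of 16.2 and 12.03 RPKM at day 0 and 625 and 606 RPKM at day 5, the largest RPF rise of all members at 5.46 ± 0.20. At day 0 it rested on 6 and 4 reads, where 4 is the fewest that any member has, so its SE may be too small. Slc2a4 RNA levels were 1.09 and 1.88 RPKM at day 0 and 516 and 487 RPKM at day 5, a change of 8.45 ± 0.33, so that its Eff fell by 2.99 on the log2 scale. Adipoq, the hormone adiponectin, had RPF levels of 172 and 272 RPKM at day 0 and 1529.9 and 1711 RPKM at day 5 and RNA levels of 43.2 and 49.0 RPKM at day 0 and 2551 and 2634 RPKM at day 5. Here again the groups did not overlap, and RNA rose by more (5.82 ± 0.26) than RPF (2.90 ± 0.17).

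This order held for most of the adipocyte markers. Of the 10, 8 fell in Eff and none rose, beside 19.9% of all genes that fell, and their median changes were 3.76 in RPF and 5.89 in RNA. Plin1, which coats the lipid droplet, had changes of 3.92 ± 0.28 in RPF and 6.05 ± 0.22 in RNA. The exceptions were Pparg and Cebpa, whose Eff changes of -0.50 ± 0.21 and -0.46 ± 0.24 did not pass. In several of the genes whose RNA rose most, RPF at day 0 was already a few percent of its day 5 level. It stood at 2.29% for Slc2a4, 2.90% for Fabp4, 3.49% for Gpd1, 4.07% for Cd36 and 4.06% for Cdo1, while RNA stood at 0.296%, 0.750%, 0.645%, 0.638% and 0.730% in that order. What these day 0 fragments are was not tested. Members needed a value in both day 0 RPF libraries, where the lowest stood for 4 reads. Among genes with little day 0 RNA that filter keeps those with RPF at day 0, and so favours falls of Eff.

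**Figure D2:**
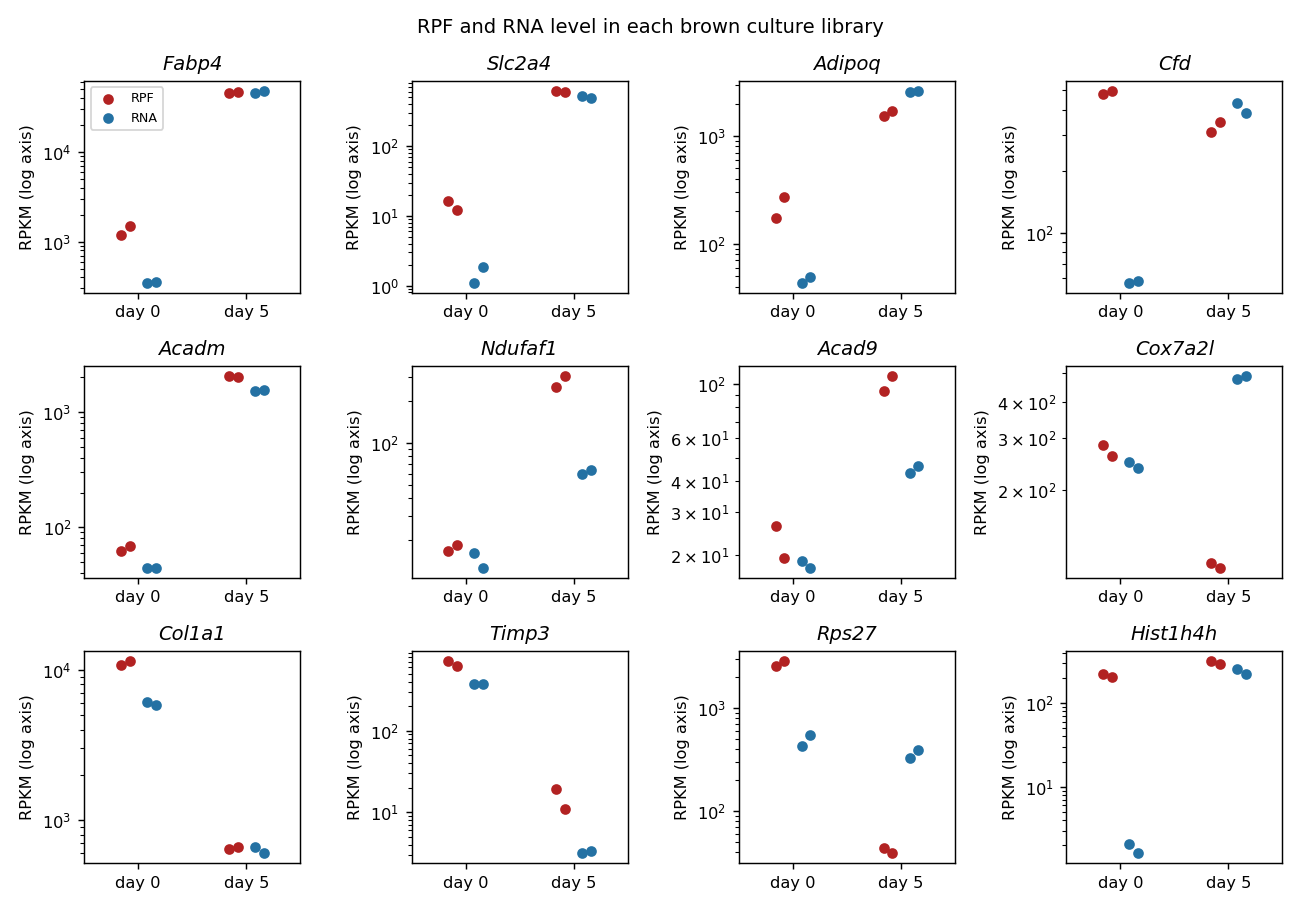
RPKM (vertical axis, log scale) of 12 genes in each of the 4 RPF libraries (red) and 4 RNA libraries (blue) at day 0 and day 5. Fabp4, Slc2a4 and Adipoq rise in both assays from a higher RPF than RNA level, Col1a1 and Timp3 fall in both, Cox7a2l falls in RPF while its RNA rises, Rps27 loses RPF with little change of RNA, and Hist1h4h gains RNA with little change of RPF.

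Of 15 adipogenic transcription factors, 5 rose and 4 fell in RPF, beside 26.0% and 34.7% of all genes. In RNA 8 rose and 4 fell, beside 29.7% and 44.9%, and in Eff 0 rose and 6 fell, beside 16.1% and 19.9%. Pparg, the receptor that drives fat cell fate, had RPF levels of 40.5 and 29.0 RPKM at day 0 and 411 and 422 RPKM at day 5 and rose by 3.60 ± 0.17 in RPF and 4.11 ± 0.11 in RNA. Cebpa rose too, by 1.93 ± 0.15 in RPF, and so did the lipogenic factor Srebf1, by 2.35 ± 0.15. The early factors went the other way: Cebpd had RPF levels of 97.2 and 91.3 RPKM at day 0 and 13.8 and 25.9 RPKM at day 5, a change of -2.32 ± 0.35, and Cebpb changed by -0.61 ± 0.19. The call of Cebpb was lost in limma with adjusted p = 0.0632 without the RPF day 0 library b and 0.086 without the RPF day 5 library b. Esrra, a receptor that controls mitochondrial genes, was among those that fell in Eff: its RNA rose by 2.85 ± 0.14, its RPF change of 0.82 ± 0.36 did not pass, and its Eff fell by 2.02 on the log2 scale. Of the 5 brown adipocyte genes tested, 3 rose and 2 fell, with the same calls in RNA. Ebf2, a factor that marks brown preadipocytes, rose by 0.85 ± 0.23 in RPF and 1.74 ± 0.12 in RNA. Its RPF call was lost with day 5 reads thinned to the day 0 depth and voom (adjusted p = 0.147). The creatine kinase Ckb and the nucleoside transporter Slc29a1 were those that fell (-1.08 ± 0.21 and -1.61 ± 0.29 in RPF).

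Secreted adipocyte proteins mostly rose, and a few parted from their RNA. Of 12 tested, 9 rose and 3 fell in RPF and 11 rose and 1 fell in RNA. Cfd, the protease adipsin, had RPF levels of 477 and 496 RPKM at day 0 and 309.8 and 349.7 RPKM at day 5. Its RNA levels were 56.6 and 57.7 RPKM at day 0 and 429 and 386 RPKM at day 5. The 2 assays thus moved in opposite directions, with -0.56 ± 0.12 in RPF and 2.83 ± 0.16 in RNA, and Cfd Eff went from 8.51 at day 0 to 0.809 at day 5. Vegfb, a growth factor of the endothelium, also rose in RNA (1.05 ± 0.12) and fell in RPF (-1.23 ± 0.25). Angptl4, an inhibitor of lipoprotein lipase, rose by 4.25 ± 0.18 in RPF and by 4.43 ± 0.08 in RNA, with no passing change of Eff.

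Lipid handling rose from uptake to storage. Of 11 lipid droplet proteins and lipases, 9 rose and 0 fell in RPF, with a median change of 2.79. Pnpla2, the lipase that opens triglyceride breakdown, had RPF levels of 60.7 and 64.1 RPKM at day 0 and 1302 and 1360.3 RPKM at day 5 and a change of 4.42 ± 0.11. Lipe, the hormone-sensitive lipase, changed by 4.52 ± 0.22 in RPF and 5.96 ± 0.11 in RNA. Plin2, a droplet coat found in many cells, was the only member of the list that rose in Eff (0.62 ± 0.21), where 6 fell, and that call was lost in limma (adjusted p = 0.0768 without the RNA day 0 library 2, 0.0682 without the RNA day 5 library 1, 0.0517 without the RNA day 5 library 2, 0.113 without the RPF day 0 library a and 0.0633 without the RPF day 5 library b). Of 16 genes of fatty acid uptake and activation 13 rose and 1 fell in RPF. The carrier Cd36 had 4.71 ± 0.23 in RPF and 7.29 ± 0.12 in RNA, and Acsl1, which joins fatty acids to coenzyme A, 3.55 ± 0.13 and 5.07 ± 0.09. Acsl5 fell in RPF (-0.93 ± 0.24), a call lost with thinned day 5 reads and voom (adjusted p = 0.165), and Cpt1a, the gate of fatty acid entry into mitochondria in liver, fell in RNA (-1.37 ± 0.12), with an RPF change of -0.64 ± 0.32 that did not pass.

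All 7 genes of triglyceride synthesis rose in both assays. The glycerol phosphate dehydrogenases differed in Eff. Cytosolic Gpd1 had RPF levels of 94.4 and 171 RPKM at day 0 and 3805 and 3789 RPKM at day 5 and RNA levels of 14.0 and 14.6 RPKM at day 0 and 2239 and 2194 RPKM at day 5, and its Eff fell by 2.38 on the log2 scale. Mitochondrial Gpd2 had RPF levels of 7.56 and 12.6 RPKM at day 0 and 236 and 241 RPKM at day 5 and RNA levels of 6.83 and 6.69 RPKM at day 0 and 83.8 and 91.6 RPKM at day 5, and its Eff rose by 0.91 ± 0.26. Their Eff levels went from 9.28 at day 0 to 1.71 at day 5 for Gpd1 and from 1.49 at day 0 to 2.72 at day 5 for Gpd2. The Gpd2 rise is uncertain, since its day 0 RPF rested on few reads, near the lowest number kept, and its SE may be too small. Its Eff call was lost in limma on the brown libraries alone (adjusted p = 0.0644). Of 16 genes of fatty acid synthesis 11 rose and 1 fell in RPF. Acly and Me1, which supply acetyl-CoA and NADPH for it, gained Eff (1.02 ± 0.18 and 1.02 ± 0.25), whereas Fasn, the synthase itself, and the desaturase Scd1 lost it (-0.62 ± 0.20 and -0.91 ± 0.14). The Eff call of Fasn was lost in limma with adjusted p = 0.0701 without the RNA day 0 library 2, 0.0668 without the RNA day 5 library 1, 0.0813 without the RPF day 0 library b and 0.0588 without the RPF day 5 library b. Scd1 shares 40.4% of its coding windows with other genes. Elovl1 was the member that fell in both assays, in RPF with adjusted p = 0.0584 without the RPF day 5 library b in limma.

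Of 18 genes of glucose uptake and insulin response 12 rose and 2 fell in RPF. The kinases Akt1 and Akt2, which carry the insulin signal, parted. Akt1 had RPF levels of 394 and 405 RPKM at day 0 and 33.2 and 29.2 RPKM at day 5 and fell by 3.68 on the log2 scale. Akt2 had RPF levels of 79.9 and 73.2 RPKM at day 0 and 169.8 and 153 RPKM at day 5 and rose by 1.08 ± 0.20. In RNA the 2 genes had -1.51 ± 0.12 and 1.64 ± 0.08. Akt2 is the form tied to glucose uptake in fat and muscle. Pde3b, which lets insulin restrain lipolysis, rose by 4.26 ± 0.20 in RPF, and caveolin Cav1 by 2.96 ± 0.10.

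Mitochondrial genes rose as a block. In RPF 78 of 81 subunits and factors of respiratory complexes I to V rose and 2 fell, and in RNA 80 rose and 1 fell. The median change was 2.88 in RPF and 2.88 in RNA, against -0.16 and -0.20 over all genes. In Eff 10 rose and 22 fell, with a median of -0.03. By complex the RPF median was 2.96 for complex I (34 tested), 3.54 for complex II (4), 3.27 for complex III with cytochrome c (11), 2.33 for complex IV (15) and 2.59 for ATP synthase (17). Every complex I gene tested rose in both assays. Ndufa1, an accessory subunit, had RPF levels of 97.3 and 108 RPKM at day 0 and 1980.2 and 2143 RPKM at day 5 and RNA levels of 72.7 and 82.4 RPKM at day 0 and 782 and 783 RPKM at day 5, with changes of 4.33 ± 0.12 and 3.34 ± 0.13. Few day 0 reads, near the lowest number kept, stood behind the RPF change of Ndufa1, so its SE may be too small. Ndufa8 rose least, by 0.60 ± 0.20 in RPF beside 2.39 ± 0.11 in RNA, and its Eff fell. That RPF call was lost in limma with adjusted p = 0.193 without the RPF day 0 library b, 0.0508 without the RPF day 5 library a and 0.0974 without the RPF day 5 library b, and with quantile scaling (adjusted p = 0.219). Its change was 0.30 with that scaling and 0.31 without the day 0 library b.

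The exceptions among the respiratory genes were few. Cox7a2l, which helps complexes III and IV to join, had RPF levels of 286 and 262 RPKM at day 0 and 113 and 108 RPKM at day 5. Its RNA levels were 249 and 237 RPKM at day 0 and 479.6 and 491 RPKM at day 5. RPF fell below, and RNA rose above, every day 0 library (-1.31 ± 0.20 and 1.00 ± 0.11), and Cox7a2l Eff went from 1.13 at day 0 to 0.228 at day 5. Atp5g2, one of the genes of the ring of ATP synthase, behaved alike (-0.90 ± 0.20 in RPF, 1.00 ± 0.08 in RNA), whereas its sisters Atp5g1 and Atp5g3, which encode the same mature protein, rose in both (0.72 ± 0.18 and 1.23 ± 0.16 in RPF). Atpif1, the inhibitor of ATP synthase, was the gene that fell in RNA (-0.59 ± 0.13), and its RPF change of -0.16 ± 0.18 did not pass.

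Assembly factors of complex I rose in all 5 cases tested, in RPF and in RNA. Ndufaf1 had RPF levels of 16.6 and 18.5 RPKM at day 0 and 254 and 304 RPKM at day 5 and RNA levels of 16.1 and 12.6 RPKM at day 0 and 59.4 and 63.8 RPKM at day 5. Its RPF rose by more than its RNA (3.98 ± 0.19 against 2.12 ± 0.16), which took Eff from 1.23 at day 0 to 4.52 at day 5 (change 1.87 ± 0.25, limma, adjusted p = 1.65e-05). The day 0 RPF of Ndufaf1 was close to the lowest number of reads kept, so its SEs and this p-value may be too small. Acad9, an acyl-CoA dehydrogenase that acts in complex I assembly, had RPF levels of 26.4 and 19.6 RPKM at day 0 and 93.5 and 108 RPKM at day 5 and RNA levels of 18.9 and 17.7 RPKM at day 0 and 43.3 and 46.2 RPKM at day 5. Its Eff also rose, by 0.85 ± 0.23 (adjusted p = 0.00794). Foxred1, another assembly factor, lost Eff (-0.87 ± 0.25; adjusted p = 0.0526 without the RPF day 0 library b in limma), so the list did not share a direction in Eff.

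Fuel oxidation rose without exception in the lists tested. All 23 genes of mitochondrial fatty acid oxidation, all 15 of the citric acid cycle, all 10 of pyruvate entry and all 18 of branched-chain amino acid breakdown rose in RPF and in RNA. Their RPF medians were 3.92, 3.65, 3.45 and 3.31, and their RNA medians 3.24, 3.18, 3.02 and 2.85, in that order. Acadm, the medium-chain acyl-CoA dehydrogenase, had RPF levels of 62.0 and 69.1 RPKM at day 0 and 2069.8 and 2016 RPKM at day 5 and RNA levels of 44.5 and 44.0 RPKM at day 0 and 1528 and 1560.2 RPKM at day 5. Its changes of 4.96 ± 0.15 and 5.13 ± 0.08 were close, with an Eff change of -0.16 ± 0.18 that did not pass. In Eff 6 rose and 0 fell of the fatty acid oxidation genes and 7 rose and 1 fell of those of amino acid breakdown. Echs1, the enoyl-CoA hydratase, gained Eff (0.78 ± 0.19). Pcx, which makes oxaloacetate from pyruvate, was the only citric acid cycle gene that lost it (-1.68 ± 0.19), with changes of 3.64 ± 0.15 in RPF and 5.32 ± 0.10 in RNA.

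**Figure D3:**
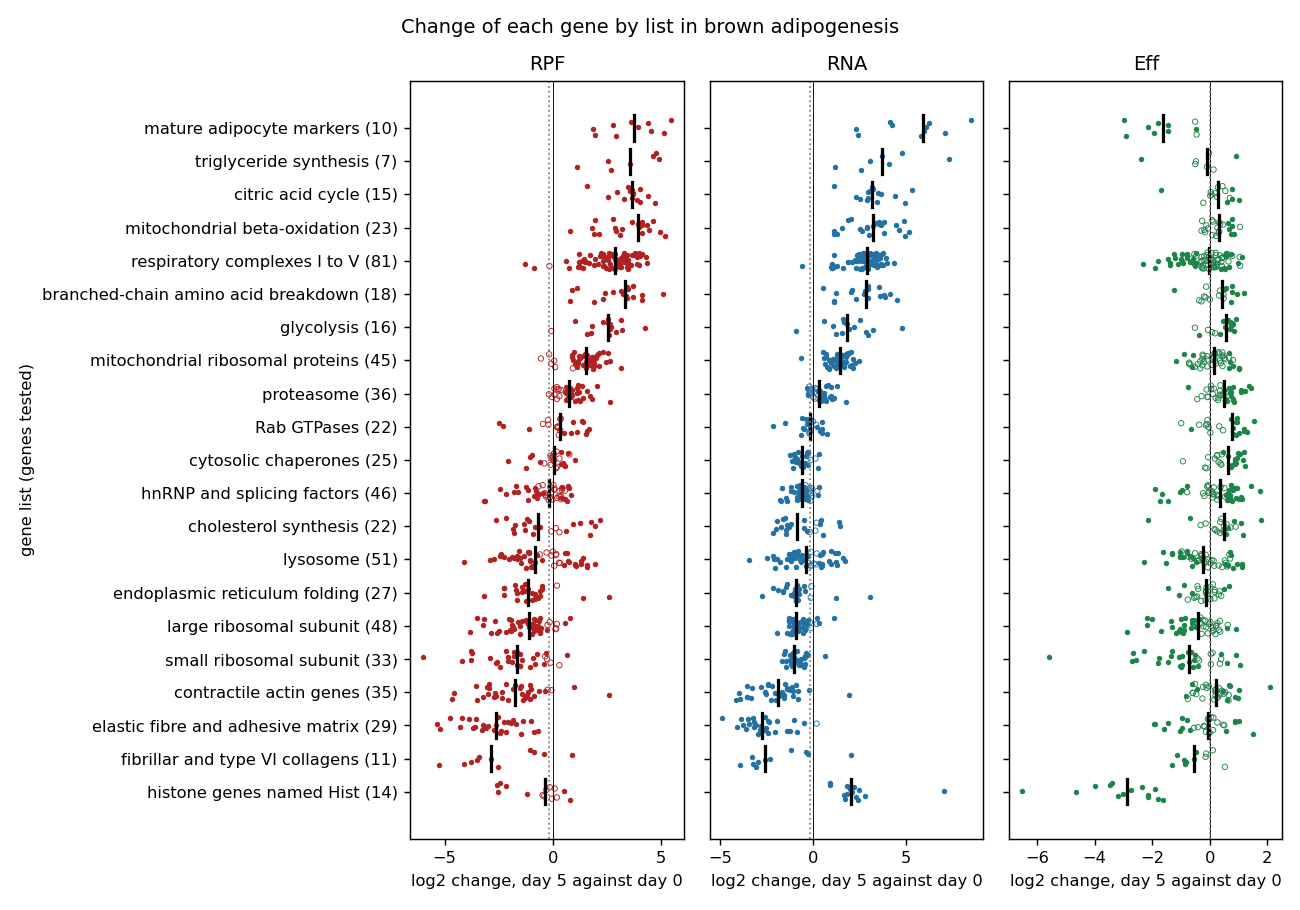
The log2 change from day 0 to day 5 (horizontal axes) of each gene of 21 lists (vertical axis, number of genes tested in brackets) in RPF, RNA and Eff. Filled points passed the test, open points did not, black bars are list medians, and the dotted line is the median of all 5035 genes. Mitochondrial lists and triglyceride synthesis lie to the right in RPF and RNA, with Eff medians from -0.09 to 0.42. The mature adipocyte markers lie to the right as well, with an Eff median of -1.62. Cholesterol synthesis lies to the left, with medians of -0.71 in RPF and -0.85 in RNA. The histone genes stand apart with a median of 2.04 in RNA and -2.89 in Eff.

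The machinery that builds mitochondria rose too. Of 45 mitochondrial ribosomal proteins 39 rose and 0 fell in RPF, with a median of 1.52, and Mrpl12, which also binds the mitochondrial RNA polymerase, had the highest change (3.15 ± 0.18). Mrpl52 fell in RNA (-0.64 ± 0.14). Of 30 mitochondrial chaperones and import proteins 24 rose and 1 fell in RPF. Hspd1, the chaperonin Hsp60, had 2.56 ± 0.13 in RPF and 1.41 ± 0.11 in RNA and gained Eff. Tomm40, the pore of the outer membrane, had 0.27 ± 0.21, which did not pass, beside 1.62 ± 0.13 in RNA, and lost Eff. Of the adenine nucleotide carriers, Slc25a4 had an RPF change of -0.01 ± 0.12 that did not pass, and Slc25a5 rose by 2.28 ± 0.11.

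Glycolytic genes rose and mostly gained Eff. Of 16 tested, 15 rose and 0 fell in RPF, 15 rose and 1 fell in RNA and 11 rose and 1 fell in Eff. Tpi1, the triose phosphate isomerase, had RPF levels of 339.5 and 322 RPKM at day 0 and 1948 and 1894 RPKM at day 5 and RNA levels of 401 and 418 RPKM at day 0 and 1274 and 1232 RPKM at day 5, and its Eff rose by 0.92 ± 0.13. The median Eff change of the list was 0.58, against 0.02 over all genes. Aldoa, the aldolase of muscle, had an Eff change of -0.36 ± 0.14 that passed by a narrow margin (limma, adjusted p = 0.0496) and was lost with adjusted p = 0.0599 to 0.159 without any 1 of 8 libraries, and Hk1, the hexokinase found in most cells, fell in RNA (-0.93 ± 0.14). Hk2, the hexokinase of insulin-responsive tissues, rose (3.18 ± 0.17 in RPF).

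Of 22 genes of cholesterol synthesis 7 rose and 12 fell in RPF, beside 26.0% and 34.7% of all genes. In RNA 5 rose and 14 fell, beside 29.7% and 44.9%. The regulators parted: Srebf2 and its escort Scap fell in RPF (-2.17 ± 0.21 and -2.63 ± 0.30), and Insig1, which holds them back, rose (1.92 ± 0.20). Sc5d, a late enzyme of the pathway, rose in both assays and gained Eff, with changes of 2.19 ± 0.17 in RPF and 0.39 ± 0.11 in RNA, the latter with adjusted p = 0.053 without the RNA day 0 library 2 in limma. Acat2, which rose, shares 79.6% of its coding windows with another gene and is uncertain. Of the antioxidant enzymes, the mitochondrial Sod2 and Prdx3 rose (3.24 ± 0.17 and 3.36 ± 0.13 in RPF), while the glutathione peroxidase Gpx1 fell (-3.74 ± 0.27 in RPF, -1.82 ± 0.11 in RNA).

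Genes of the extracellular matrix fell. All 29 genes of elastic fibres and adhesive matrix fell in RPF and 28 in RNA, and of 11 collagens 1 rose and 10 fell in RPF, with medians of -2.61 and -2.88. Col1a1, the main chain of type I collagen, had RPF levels of 10802 and 11443 RPKM at day 0 and 639 and 659 RPKM at day 5 and RNA levels of 6061 and 5824 RPKM at day 0 and 659 and 602 RPKM at day 5. It fell by 4.10 in RPF and fell by 3.24 in RNA on the log2 scale. Eln, the elastin of elastic fibres, had RPF levels of 75.1 and 82.0 RPKM at day 0 and 1.96 and 2.31 RPKM at day 5, a change of -5.20 ± 0.22, beside -3.60 ± 0.16 in RNA. Here the day 5 RPF values stood for few reads, near the lowest number kept, so the SE of the RPF change may be too small. The collagen that rose was Col5a3 (0.88 ± 0.18 in RPF, 2.01 ± 0.11 in RNA), while its partners Col5a1 and Col5a2 fell (-2.88 ± 0.14 and -3.41 ± 0.13). Of the collagens that fell, the type VI chains Col6a1, Col6a2 and Col6a3 fell least (-0.41 ± 0.10, -0.88 ± 0.12 and -1.08 ± 0.13).

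Part of the matrix lost more RPF than RNA. Of the collagens 0 rose and 7 fell in Eff and of 15 basement membrane genes 1 rose and 9 fell, beside 16.1% and 19.9% of all genes. Their median Eff changes were -0.56 and -0.68. The elastic and adhesive list moved little as a whole. Of its 29 genes 5 rose and 9 fell in Eff, with a median of -0.07, against 0.02 over all genes. In RNA 2 rose and 8 fell of the basement membrane genes, with a median of -0.39, and in RPF 0 rose and 12 fell, with a median of -0.88. Col4a1, the main collagen of basement membranes, had RPF levels of 436 and 472 RPKM at day 0 and 313 and 298 RPKM at day 5 and RNA levels of 454 and 440.5 RPKM at day 0 and 659 and 644 RPKM at day 5. The RNA rose (0.54 ± 0.11) and the RPF fell (-0.57 ± 0.12). With quantile scaling the RNA change of Col4a1 was -0.02. Aspn, a small leucine-rich protein, went the other way and gained Eff (1.49 ± 0.30).

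Matrix proteases and their inhibitors fell with the matrix (of 34, 0 rose and 30 fell in RPF). Timp3, an inhibitor of matrix metalloproteases, had RPF levels of 715 and 623 RPKM at day 0 and 19.2 and 10.96 RPKM at day 5 and RNA levels of 374 and 371 RPKM at day 0 and 3.15 and 3.35 RPKM at day 5. Its fall was the largest of all members in RNA (-6.84 ± 0.12), and in RPF it was -5.52 ± 0.22. All day 5 libraries lay below all day 0 libraries in both assays. Of the integrins, which tie cells to matrix, 6 were tested and 0 rose and 5 fell in RPF, led by the collagen receptor subunit Itga11 with RPF levels of 274 and 279 RPKM at day 0 and 5.40 and 4.46 RPKM at day 5. Inhibitors of Wnt signalling fell in step in the 2 assays: Sfrp1 had -4.28 ± 0.21 and -4.57 ± 0.14, and Sfrp2 -4.40 ± 0.30 and -4.82 ± 0.11. The Wnt coreceptors Lrp5 and Lrp6 fell in RPF (-1.87 ± 0.28 and -1.32 ± 0.22) with RNA changes of 0.21 ± 0.14 and -0.03 ± 0.20 that did not pass.

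Most contractile and cytoskeletal genes fell as well. Of 35 contractile genes 2 rose and 31 fell in RPF and 1 rose and 34 fell in RNA. Acta2, the actin of smooth muscle and myofibroblasts, had RPF levels of 1202 and 1275 RPKM at day 0 and 104 and 113 RPKM at day 5 and a change of -3.51 ± 0.19. Actn1, which crosslinks actin, changed by -4.68 ± 0.26. Fhl1 rose in both assays (2.60 ± 0.23 and 1.94 ± 0.11). Tmod3, which caps actin filaments, had RPF levels of 23.4 and 47.8 RPKM at day 0 and 74.8 and 58.3 RPKM at day 5 and RNA levels of 72.5 and 76.6 RPKM at day 0 and 33.9 and 34.7 RPKM at day 5, and with RPF up and RNA down it had the highest Eff change of all members in the deposited scaling (2.10 ± 0.34). Its day 0 RPF rested on 6 and 11 reads, and its RPF call was lost in limma with adjusted p = 0.162 without the RPF day 0 library a and 0.105 without the RPF day 5 library a. Without the day 0 library a the RPF change was 0.47. Of 12 genes of the tubulin list 2 rose in RPF (Tbca and Tubg1) and 7 fell, with Tubb5 at -2.50 ± 0.13. Of 17 genes of the cell cycle 2 rose and 10 fell in RPF. Over all genes 26.0% rose and 34.7% fell in RPF. Mki67, a marker of dividing cells, fell by 3.35 on the log2 scale, while the cycle inhibitor Cdkn1b rose in RPF (1.82 ± 0.21) with an RNA change of 0.28 ± 0.13 that did not pass.

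Ribosomal proteins fell in RPF by more than in RNA. Of 81 tested, 3 rose and 69 fell in RPF and 4 rose and 74 fell in RNA, with medians of -1.44 and -0.96. In Eff 6 rose and 44 fell, beside 16.1% and 19.9% of all genes, with a median of -0.42 for the large and -0.72 for the small subunit. Rps27 had RPF levels of 2534 and 2843 RPKM at day 0 and 43.9 and 39.1 RPKM at day 5. Its RNA levels were 429 and 547 RPKM at day 0 and 325 and 394 RPKM at day 5. RPF dropped out of the range of day 0 by far (-6.02 ± 0.21) and RNA moved little (-0.44 ± 0.14), a fall that limma lost with adjusted p = 0.152 without the RNA day 0 library 2 and 0.131 without the RNA day 5 library 1. Rps27 Eff went from 5.51 at day 0 to 0.116 at day 5. All coding windows of Rps27 are found in Gm9846 too, and all of Gm9846 in Rps27, so that the values of Rps27 are uncertain. Rpl14 followed among the large subunit genes, with RPF levels of 4359 and 5107 RPKM at day 0 and 312 and 341 RPKM at day 5 and RNA levels of 1401 and 1485 RPKM at day 0 and 755 and 726 RPKM at day 5. The fall was uneven: Rps2, Rps23 and Rpsa had Eff changes of -2.71 ± 0.16, -2.55 ± 0.32 and -2.27 ± 0.18, whereas Rps29 and Rps13 gained Eff (0.91 ± 0.13 and 1.06 ± 0.30). Of these, Rps2, Rps23 and Rps13 share 81.6%, 42.8% and 67.6% of their coding windows with other genes, and their values are uncertain. Among the 47 ribosomal protein genes that share under 10%, 28 fell and 4 rose in Eff, and among the 34 others 16 fell and 2 rose.

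**Figure D4:**
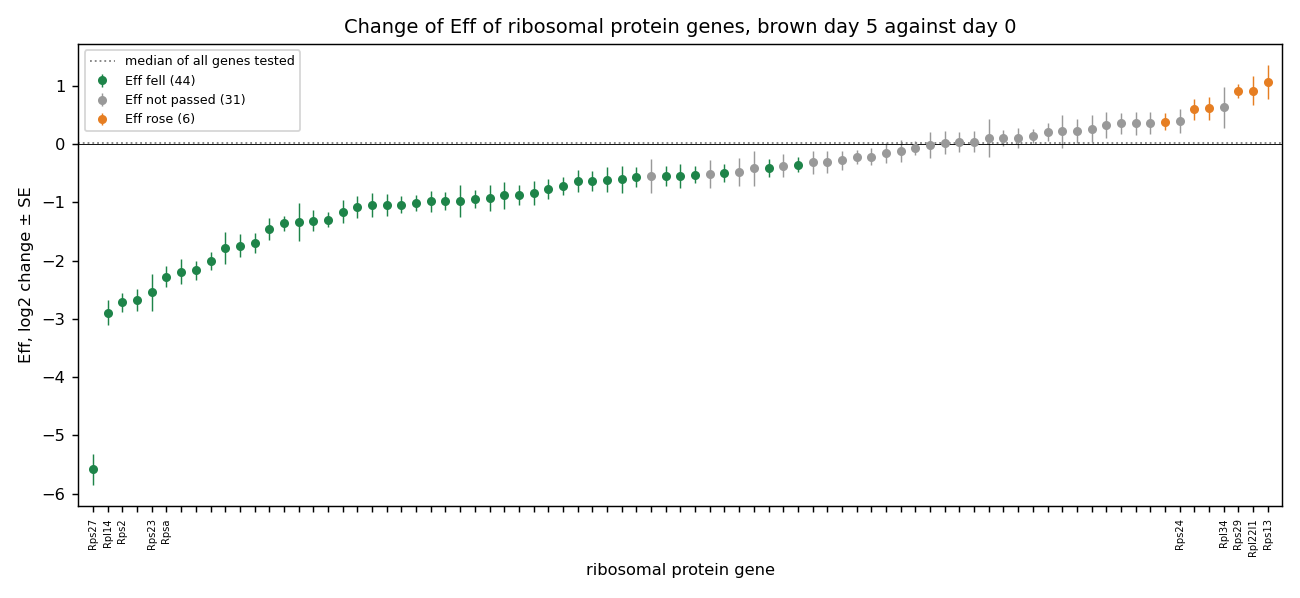
The log2 change of Eff from day 0 to day 5 (vertical axis) is shown for each of 81 ribosomal protein genes in ascending order (horizontal axis, genes named in the text are labelled), with bars of 1 SE from the fit over all libraries. Eff fell in 44, rose in 6 and did not pass in 31, and Rps27 lies apart at -5.58 ± 0.26.

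The start of the mRNA is where the pyrimidine tract of these genes lies. The 10 bases before and the first 20 bases from the annotated start are shown for the 4 lowest and 4 highest Eff changes that have an entry in RefSeq (build GRCm38.p6), so that both ends of the range can be compared. Capitals mark the longest run of C or T on the gene's strand that lies within 10 bases of the start.
Rps27, Eff -5.58, chr3:90213629-90213658, minus strand: cgctttcgCTCCTTTCCggcggtgacgacc
Rpl14, Eff -2.89, chr9:120571507-120571536, plus strand: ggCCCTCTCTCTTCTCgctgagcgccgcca
Rps2, Eff -2.71, chr17:24720053-24720082, plus strand: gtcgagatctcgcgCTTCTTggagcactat
Rps23, Eff -2.55, chr13:90923112-90923141, plus strand: cggctgggcggggCTTCCCgcaatgccttg
Rps24, Eff 0.40, chr14:24490668-24490697, plus strand: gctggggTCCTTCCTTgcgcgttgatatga
Rpl34, Eff 0.63, chr3:130730318-130730347, minus strand: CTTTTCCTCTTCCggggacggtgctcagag
Rpl22l1, Eff 0.92, chr3:28805498-28805527, plus strand: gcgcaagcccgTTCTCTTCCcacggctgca
Rps13, Eff 1.06, chr7:116334171-116334200, minus strand: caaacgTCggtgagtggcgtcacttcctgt

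Runs of at least 7 pyrimidines stood in genes from both ends of the Eff range. Of 60 ribosomal protein genes with an annotated start, 28 (46.7%) had such a run, against 14.6% of the 3770 genes tested that have one. Among those that fell in Eff the share was 47.1% (16 of 34), among those that did not pass, which include Rps24 and Rpl34, 47.8% (11 of 23), and among those that rose 33.3% (1 of 3). With a run of at least 5 the shares were 67.6%, 52.2% and 33.3%, and 39.3% of all genes had one. Annotated starts may differ from those used in these cells.

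Of 55 initiation and elongation factors 17 rose and 15 fell in RPF, beside 26.0% and 34.7% of all genes, and 11 rose and 12 fell in Eff, beside 16.1% and 19.9%. Eef2, which moves the ribosome along the mRNA, had RPF levels of 2215 and 2123 RPKM at day 0 and 509.8 and 477 RPKM at day 5 and RNA levels of 2425 and 2422 RPKM at day 0 and 1408 and 1410.1 RPKM at day 5. Its Eff fell by 1.35 on the log2 scale. That of Pabpc1, the poly(A)-binding protein, fell by 2.03, and that of Eif4b, a helper of the cap-bound helicase, fell by 1.54. Eef1a1, which brings tRNA to the ribosome, fell in both assays alike, with an Eff change of -0.22 ± 0.12 that did not pass. Eif2s3x, the gamma subunit of Eif2, went the other way, with 1.61 ± 0.26 in RPF and 1.72 ± 0.29 in Eff, and so did the release factor Etf1 (1.67 ± 0.27 in Eff). The mitochondrial factors Tufm and Gfm1 rose in both assays with the other mitochondrial genes (2.08 ± 0.20 and 2.99 ± 0.21 in RPF). Of 23 aminoacyl-tRNA synthetases 9 rose and 2 fell in Eff, and the mitochondrial Iars2 had the highest RPF change (2.27 ± 0.24).

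Histone genes gained RNA and, for the most part, no RPF. The 14 members named Hist, a subset counted after the values were seen, all rose in RNA and all fell in Eff, and 2 rose and 5 fell in RPF. Hist1h4h, which encodes histone H4, had RPF levels of 225 and 207 RPKM at day 0 and 319.5 and 291 RPKM at day 5. Its RNA levels were 2.07 and 1.60 RPKM at day 0 and 255 and 223 RPKM at day 5. Those of day 0 stood for few reads, near the lowest number in these RNA libraries. The sizes of its RNA and Eff changes are therefore uncertain. RNA at day 5 lay far above day 0 (7.03 ± 0.21) and RPF little above it (0.50 ± 0.13, a call lost in limma with adjusted p = 0.0505 without the RPF day 5 library a and with 0.0842 under quantile scaling), and Eff went from 118 at day 0 to 1.28 at day 5. voom lost that RPF call too, with an adjusted p of 0.133 on all reads and 0.447 on thinned reads. Hist1h1c, a linker histone, had RPF levels of 155 and 137 RPKM at day 0 and 248 and 249 RPKM at day 5 and RNA levels of 92.0 and 83.1 RPKM at day 0 and 495 and 424 RPKM at day 5, with an Eff change of -1.62 ± 0.26. Hist1h2bh was lower in RPF (-2.56 ± 0.48) and higher in RNA (2.10 ± 0.24), on 10 and 10 day 0 reads against 6 and 9 at day 5. Replication-dependent histone mRNAs end in a stem-loop in place of a poly(A) tail, and all samples are labelled polyA RNA. Whether this enters the RNA levels was not tested. The replacement histones H3f3a and H3f3b, whose mRNAs carry a poly(A) tail, had Eff changes of 0.35 ± 0.22 and 0.49 ± 0.23 that did not pass, and H3f3a shares 92.7% of its coding windows with other genes. Most Hist genes share coding sequence (78.4% of the windows of Hist1h4h), so their single values are uncertain. With at least 10 reads in each brown library, 7 of the 22 genes of the list of histones and chromatin proteins remained. Of these 1 rose and 3 fell in Eff, and their median Eff change was 0.35, against -2.15 for the 22. The 22 hold the 14 Hist genes, with a median of -2.89, and 8 others, with one of 0.38. The median of the list thus depends on which members remain.

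Eff rose in more genes than it fell in the lists of cytosolic chaperones, proteasome, Rab GTPases and splicing factors. In other lists of folding and degradation it did not: of 27 folding factors of the endoplasmic reticulum 2 rose and 4 fell, of 51 lysosomal genes 9 rose and 15 fell, and of 30 mitochondrial chaperones and import proteins 5 rose and 6 fell. Over all genes 16.1% rose and 19.9% fell in Eff, and the mitochondrial list lay close to these shares. Of 25 cytosolic chaperones 14 rose and 0 fell in Eff, 2 rose and 20 fell in RNA and 7 rose and 5 fell in RPF. All 8 subunits of the TRiC chaperonin, which folds actin and tubulin, fell in RNA, none fell in RPF and 4 rose there, and 6 rose in Eff (a subset counted after the values were seen). Cct3 had RPF levels of 159 and 126 RPKM at day 0 and 200.1 and 219.8 RPKM at day 5 and RNA levels of 149 and 161 RPKM at day 0 and 101 and 97.7 RPKM at day 5. The RNA groups and the RPF groups were thus apart in opposite directions (-0.65 ± 0.09 and 0.57 ± 0.16). The RPF call was lost with quantile scaling (adjusted p = 0.05 after rounding) and in limma with adjusted p = 0.0509 without the RPF day 0 library b and 0.0589 without the RPF day 5 library b. Hsp90ab1 fell in both, with an Eff change of -0.05 ± 0.13 that did not pass.

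Of 36 proteasome genes 26 rose and 0 fell in RPF, 21 rose and 3 fell in RNA and 16 rose and 1 fell in Eff. Psma1, of the core ring, had RPF levels of 203 and 163 RPKM at day 0 and 1089.7 and 1149 RPKM at day 5 and RNA levels of 127 and 140.2 RPKM at day 0 and 459 and 454 RPKM at day 5. Psmd7, of the regulatory lid, rose in RPF (1.10 ± 0.21) and fell in RNA (-0.33 ± 0.10; adjusted p = 0.0694 without the RNA day 0 library 2 in limma, 0.2 with median-of-ratios scaling). Psmd8 was the only subunit that lost Eff (-0.75 ± 0.18). Of 22 Rab GTPases, which direct vesicle traffic, 12 rose and 1 fell in Eff. Rab10 and Rab14, both known from Glut4 traffic, had RPF changes of 1.55 ± 0.19 and 1.60 ± 0.22 beside 0.73 ± 0.10 and 0.39 ± 0.10 in RNA. Of 46 hnRNP and splicing factors 2 rose and 36 fell in RNA while 20 rose and 7 fell in Eff. Hnrnpa1 and Hnrnpa0 were on the falling side (-1.46 ± 0.17 and -1.73 ± 0.32 in Eff) and Tra2b and Hnrnpk on the rising side (1.42 ± 0.23 and 0.93 ± 0.14).

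**Figure D5:**
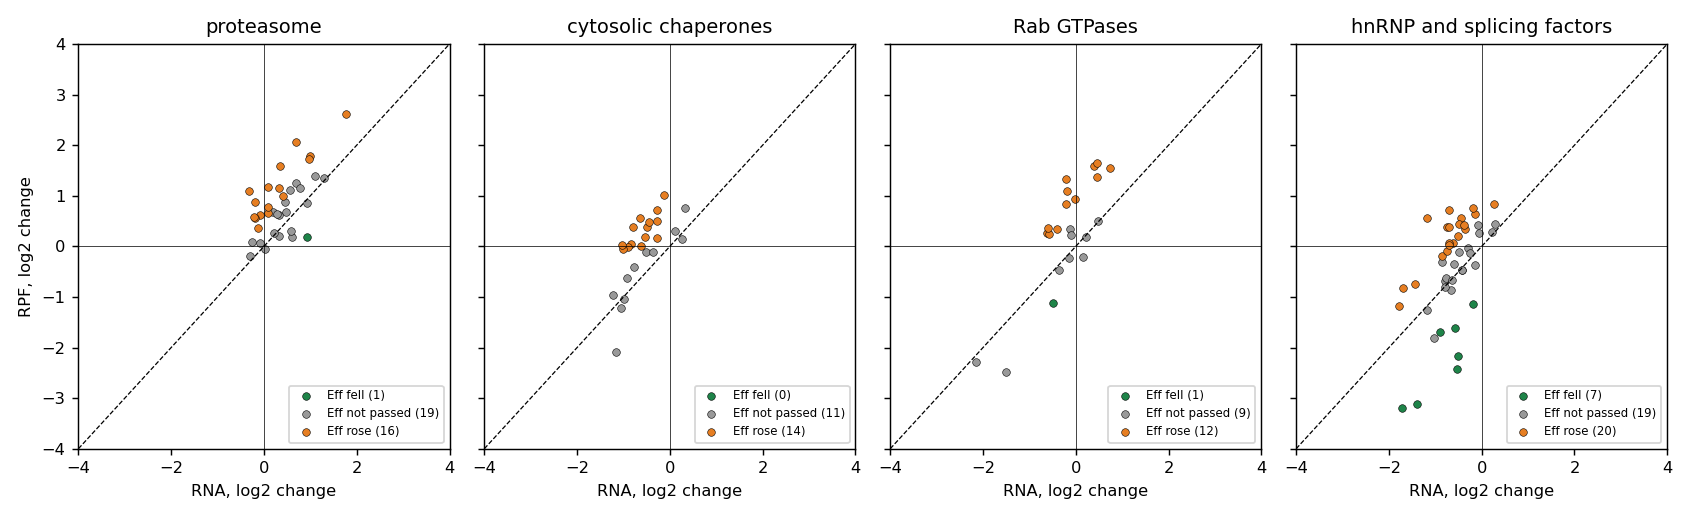
RPF change (vertical axis, log2) against RNA change (horizontal axis, log2) from day 0 to day 5 for the members of 4 lists, coloured by the Eff call. Points above the dashed line gained more RPF than RNA, as 16 proteasome, 14 chaperone, 12 Rab and 20 splicing genes did past the test.

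The secretory and lysosomal genes did not all move alike. Of 27 folding factors of the endoplasmic reticulum 2 rose and 24 fell in RPF, the exceptions being Ero1l, an oxidase of disulfide bond formation (2.58 ± 0.16), and Dnajb9 (1.37 ± 0.26). The collagen chaperone Serpinh1 fell by 2.25 on the log2 scale. Of 36 lysosomal genes other than the proton pump 6 rose and 24 fell in RPF, whereas of 15 subunits of the pump, the V-ATPase, 8 rose and 4 fell (subsets counted after the values were seen). Cathepsin K, Ctsk, a collagen-degrading protease, changed by -2.93 ± 0.20 and the pump subunit Atp6v1e1 by 1.92 ± 0.18. Psap, which activates lysosomal lipid enzymes, had RPF levels of 4383 and 3808 RPKM at day 0 and 1742 and 2079.7 RPKM at day 5 and RNA levels of 876 and 939 RPKM at day 0 and 1341 and 1246 RPKM at day 5, with RPF down and RNA up. Of the ferritins, Ftl1 had -2.20 ± 0.18 in RPF and Fth1 0.79 ± 0.09, the latter call being lost with quantile scaling (0.14, adjusted p = 0.236). Alas1, which opens heme synthesis, rose by 3.99 ± 0.13. Of the annexin and S100 list S100a1, a calcium-binding protein, had one of the 8 highest RPF changes (5.34 ± 0.15, on 6 and 4 day 0 reads against 824 and 903 at day 5). With so few day 0 reads the SE of S100a1 may be too small. S100a4, a fibroblast marker, fell by 3.20 on the log2 scale.

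RPF, RNA and Eff combined in several ways. Of 1495 genes whose RNA rose, 210 (14.0%) also rose in Eff and 392 (26.2%) fell, of which 158 did not pass in RPF and 108 fell there. Of 2262 genes whose RNA fell, 424 (18.7%) also fell in Eff and 386 (17.1%) rose. Of these 386, 225 did not pass in RPF and 83 rose there. The shares over all genes were 16.1% up and 19.9% down in Eff. RNA is the lower part of the Eff ratio, so a choice by a rise of RNA favours falls of Eff, and a choice by a fall of RNA favours rises. Among genes whose RPF changed at least 4-fold, those whose RNA rose had shares of 28.9% up and 17.3% down in Eff (370 genes), and those whose RNA fell 2.96% up and 53.5% down (507 genes). The choice by RPF size favours genes whose Eff moved with it, since RPF enters Eff. RPF and RNA both passed in opposite directions in 191 genes. Med25, a subunit of the Mediator complex, had the largest fall of RPF beside a rise of RNA (-2.81 ± 0.34 and 0.41 ± 0.11), on 55 and 27 day 0 reads against 21 and 27 at day 5, and Rpl7l1, named for its likeness to a ribosomal protein, the largest rise of RPF beside a fall of RNA (1.50 ± 0.27 and -0.35 ± 0.10). Both were named after their values were seen, and the RNA call of Rpl7l1 was lost in limma with adjusted p = 0.0552 without the RNA day 0 library 2 and 0.0781 without the RNA day 5 library 2.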

How the data were processed

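Ribosome-protected fragments and RNA were read from cultured brown fat cells at day 0 and day 5, with 2 libraries per assay and day. The processing notes list cutadapt 1.8.3, TopHat2 2.0.9 and Bowtie 1.0.0. The authors deposited RPKM over the coding sequence of the most abundant isoform, from reads with a single site and no mismatch. The genome build is not given in the sources used here. Of 22418 genes in the deposited table, 11164 had a value above 0 in part of the libraries and 6219 in none, and were left out. Read numbers were recovered from the RPKM steps, and came out whole (within 0.01 read) in all 24 libraries for 4755 of 4841 genes with a single coding length.

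Log2 RPKM without a pseudocount were fitted with limma 3.58.1 in R 4.3.3 with a variance trend, over the 12 libraries and 6 groups of each assay. Eff was fitted as the interaction of assay and day over all 24 libraries. P-values were two-sided and Benjamini-Hochberg adjusted over 5035 genes, with a threshold of 0.05. The script was tested on simulated data. Alternatives covered scaling, filters, a pseudocount, voom on recovered reads, a replicate block and each library left out. Named genes were the 8 highest and lowest changes per measure, the members of each list with the smallest adjusted p (up to 4 in RPF, 3 in RNA and 3 in Eff), members against their list, cell type markers and genes known for these cells. Members and lists were chosen with earlier results of these data known. Actn1, Akt2, Atp5g1, Atp5g3, Col5a1, Col6a1, Col6a2, Col6a3, Fth1, Hk2, Lrp6, Me1, Rpl34, Rps23 and Rps24 were named outside this rule, after their values were seen. A few genes chosen this way are left out of the text. Shared coding windows of 28 bases were counted on GENCODE vM21.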

Additional observations from a re-analysis of the deposited data

How the results depend on the processing

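The day 0 RPF depth, the scaling and the number of libraries limit these results. Over the 5035 genes, leaving out 1 library in turn gave 1092 to 1287 rising and 1467 to 1633 falling genes in RPF, 1359 to 1378 and 2008 to 2060 in RNA, and 559 to 900 and 750 to 1020 in Eff. Where a day then had 1 library, it was assumed to vary like the other groups. With at least 10 reads in each brown library, 2736 genes were left, of which 690 rose in RPF and 714 rose and 1431 fell in RNA. Fewer genes were tested there. With day 5 RPF reads thinned to the day 0 depth and voom, 485 genes rose in Eff. voom on all recovered reads gave 1152 and 1685 genes in RPF and 632 and 923 in Eff. Among genes whose RPF changed at least 4-fold the shares that rose and fell in Eff were 28.9% and 17.3% where RNA rose, and 2.96% and 53.5% where RNA fell. A run of at least 5 pyrimidines stood in 39.3% of all genes.

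Deviations of libraries with the same number or letter showed next to no correlation (-0.0173 in RPF and 0.00186 in RNA, 2 pairs each). For RPF this cannot tell whether libraries are paired, since the day 0 duplicates differed by less than sampling noise. A fit with a replicate block gave 1267 and 1703 genes in RPF, 1498 and 2257 in RNA and 753 and 947 in Eff. Quantile scaling reversed the RPF change of Rps29 (-0.0103), the RNA change of Col4a1 (-0.0222) and that of H3f3a (-0.39); the cause was not tested. For the named genes, 6278 values under an alternative kept their direction and their side of the threshold, 149 no longer passed and 61 newly passed. Fitted on the brown libraries alone, the Eff calls of Gpd2 and Rps13 were lost (limma, adjusted p = 0.0644 and 0.0778), and with thinned reads and voom the RPF call of Atp5g1 and the Eff call of Me1 (adjusted p = 0.079 and 0.0693). Median list changes that turned sign under another scaling were close to 0, such as the RPF median of the aminoacyl-tRNA synthetases (0.06 with median-of-ratios scaling), that of the cytosolic chaperones (-0.10 with quantile scaling) and the RNA median of the Rab GTPases (0.01 with median-of-ratios scaling). The alternative with day 0 duplicates as 1 library was chosen after seeing the data.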
